A study of Mus musculus with 6 samples.

Results

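The genes of sterol and fatty acid metabolism were compared in hematopoietic stem and progenitor cells of the mouse (HSPCs), grown under pro-lymphoid conditions or under pro-myeloid ones. The set was chosen by symbol from a table of 23337 genes and holds 37 genes. All 37 were found and all 37 passed the filter on low counts. They comprise 17 sterol synthesis enzymes, 5 genes that control or carry sterols (the SREBP group), 10 fatty acid synthesis enzymes and 5 genes of sterol efflux and storage. The pro-lymphoid libraries are replicates 1, 5 and 6 and the pro-myeloid libraries replicates 2, 3 and 4, numbered as in their titles. Both groups carried MLL-AF9, the leukemia fusion oncogene used for transformation, and no untransformed cells entered the comparison. The labels tie no library to a culture or an animal of its own. The p-values therefore measure only how far these libraries spread, and that spread may be technical.

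Cholesterol is built from acetyl-CoA through mevalonate, isoprenoid pyrophosphates, squalene and lanosterol. When membrane sterol is low, the escort protein SCAP carries SREBP transcription factors from the endoplasmic reticulum to the Golgi, where proteases release their active part. When sterol is ample, INSIG proteins hold SCAP back. SREBP-2 acts mainly on sterol genes and SREBP-1 more on fatty acid genes, and the LXR nuclear receptors respond to oxysterols by raising efflux transporters such as ABCA1 and ABCG1. Proliferating progenitors use both routes for membranes, and macrophages are known for their sterol efflux.

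Promoters of 4 of the genes are shown as examples, since sterol genes are known to be read through elements near their start sites. They were chosen, after the values were seen, from the genes called lower that have 1 promoter window each. Of the 37 genes, 29 had a promoter sequence in the RefSeq table (build GRCm38.p6, the assembly also called mm10). Fdps, Fdft1, Sqle, Stard4, Scd1, Scd2, Fads1 and Abcg1 had none. Each sequence covers 250 bases before and 50 after a start site. Capitals mark matches to a sterol regulatory element (SRE, searched as TCACNCCAC), to the CCAAT box bound by NF-Y (searched as CCAAT) and to the E-box (searched as CACGTG), on either strand. Each stretch runs 5′ to 3′ along the strand of its gene, and none of the matches shown overlap.
Hmgcs1 promoter, chr13:119690171-119690320, plus strand, bases -180 to -31 from the start site: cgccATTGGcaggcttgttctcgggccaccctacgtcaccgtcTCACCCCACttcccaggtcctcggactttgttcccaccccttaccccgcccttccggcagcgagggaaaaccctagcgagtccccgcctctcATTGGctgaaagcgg
Sc4mol promoter, chr8:64733619-64733748, minus strand, bases -170 to -41: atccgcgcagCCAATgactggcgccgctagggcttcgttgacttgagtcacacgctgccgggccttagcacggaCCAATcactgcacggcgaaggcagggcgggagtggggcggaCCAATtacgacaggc
Sc5d promoter, chr9:42264311-42264410, minus strand, bases -110 to -11: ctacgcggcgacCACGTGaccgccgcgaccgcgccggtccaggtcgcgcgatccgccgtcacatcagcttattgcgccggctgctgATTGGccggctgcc
Insig1 promoter, chr5:28071192-28071321, plus strand, bases -220 to -91: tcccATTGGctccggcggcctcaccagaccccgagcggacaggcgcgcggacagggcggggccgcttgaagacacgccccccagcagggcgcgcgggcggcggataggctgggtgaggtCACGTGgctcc

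A gene can have several promoter windows, and it was counted if any of them held the letters. Counted so, the CCAAT letters stood in 13 of the 14 sterol synthesis genes with a sequence, against 41.1% of all 27025 genes in the table. By single windows they stood in 13 of 17, against 37.4% of all 32851 promoters. The exception was Acat2. For Pmvk the letters lay in a window at 89454291 to 89454590, upstream of its counted start at 89459118. For Dhcr7 they lay only in a window at 143829964 to 143830263, downstream of its counted start at 143823167. The shares of all genes and promoters were not limited to genes expressed in these cells. The GC box (searched as GGGCGG, either strand) stood in 13 of the 14 genes, against 38.2% of all genes, with Pmvk as the exception, and in 14 of the 17 windows, against 35.7% of all promoters. Of the 7 fatty acid synthesis genes with a sequence, 4 held the CCAAT letters (Acly, Fasn, Elovl1 and Elovl5) and 3 the GC box. Of the 4 efflux and storage genes with a sequence, Soat1 held the CCAAT letters and 2 the GC box. In the SREBP group, 3 of the 4 genes with a sequence held the CCAAT letters and all 4 the GC box. The E-box letters stood in 3 of the 14 sterol synthesis genes and 2 of the 4 SREBP group genes. They also stood in 1 of the 7 fatty acid synthesis genes and 1 of the 4 efflux and storage genes, against 8.09% of all genes. The SRE letters were found in Hmgcs1 alone among the 29 genes, at bases -137 to -129, and in 1.44% of all genes (1.24% of all promoters). Other forms of the element, and sites outside the windows, were not searched, so the other genes may still have one. The direct repeat of LXR sites (DR4) was searched only as exact AGGTCA repeated after 4 free bases, on either strand. That exact form stood in no member promoter and in 0.0152% of all promoters. So rare a match says nothing about LXR sites with other letters, and Abcg1 had no sequence to search. These matches describe letters in a window and were not tested as binding sites.

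The libraries held 34972488 to 46724382 counts, and levels are given as CPM, counts scaled to the library total after TMM correction (trimmed mean of M-values). A level of 3 counts was worth 0.0650 to 0.0888 CPM, depending on the library. The labelled cell type was checked by 5 progenitor and blood cell markers, which were present in all 6 libraries and summed to 1067 to 1295 CPM in pro-lymphoid and 979 to 1034 CPM in pro-myeloid culture (3 higher and 1 lower of 5 tested). Kit, a receptor of stem and progenitor cells, averaged 83.5 ± 16.8 CPM in pro-lymphoid and 24.9 ± 15.6 CPM in pro-myeloid culture (edgeR adjusted p = 0.0141), and Cd34, a progenitor surface marker, 308 ± 105 CPM in pro-lymphoid and 117 ± 29.2 CPM in pro-myeloid culture (0.00766). Cd48 was also higher, Ptprc was lower and Spn was not called. The summed level of 10 neutrophil markers was 163 to 367 CPM in pro-lymphoid and 4783 to 9196 CPM in pro-myeloid culture, with all 8 tested markers lower. Summed over 10 monocyte and macrophage markers, levels were 846 to 1975 CPM in pro-lymphoid against 2310 to 3560 CPM in pro-myeloid culture (2 higher and 3 lower of 10 tested), and over 10 dendritic cell markers 888 to 1404 CPM in pro-lymphoid against 505 to 729 CPM in pro-myeloid culture (7 higher and 1 lower of 9). The 8 B-cell markers summed to 25.0 to 34.9 CPM in pro-lymphoid against 29.5 to 54.5 CPM in pro-myeloid culture (2 lower of 4 tested). The 6 T and NK cell markers summed to 0.419 to 0.994 CPM in pro-lymphoid against 0.0592 to 0.130 CPM in pro-myeloid culture (1 higher of 1 tested), with Cd3e and Ncr1 at 0. The 10 erythroid, megakaryocyte and mast cell markers summed to 2.51 to 7.61 CPM in pro-lymphoid against 9.12 to 31.8 CPM in pro-myeloid culture (1 lower of 3 tested), with Hba-a1 and Fcer1a at 0. Among 10 stroma markers Col1a2, Col3a1, Dcn and Lum were at 0 in all libraries, and the list summed to 2.09 to 19.7 CPM in pro-lymphoid against 6.66 to 19.2 CPM in pro-myeloid culture (2 lower of 3 tested). The 12 cell cycle genes summed to 4249 to 4518 CPM in pro-lymphoid and 2433 to 4155 CPM in pro-myeloid culture, with 3 higher and 0 lower. All these counts are read against 21.3% lower and 17.4% higher of all genes tested. The share higher was 25% for the cell cycle genes. For the monocyte and macrophage markers 20% were higher and 30% lower. The part of these differences in the results was not tested.

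Of the 17 sterol synthesis enzymes, 8 fell (Hmgcs1, Mvk, Mvd, Fdps, Fdft1, Sc4mol, Nsdhl and Sc5d), 0 rose and 9 did not pass the test. Their median log2 fold change, pro-lymphoid minus pro-myeloid, was -0.56, against 0 over all 12477 genes tested, and 15 of the 17 had a negative value. Of all genes tested, 21.3% were lower and 17.4% higher in pro-lymphoid culture (38.6% in all, edgeR quasi-likelihood test, adjusted p under 0.05). In bulk RNA, fewer cells of a type and less RNA per cell cannot be told apart. For 10 of the 17 the libraries of the cultures did not overlap, all lower in pro-lymphoid culture, where 27.2% of all tested genes were lower without overlap. The number lower was 4 without lymphoid replicate 1, lymphoid replicate 5 or myeloid replicate 3, and 5 without myeloid replicate 4, while the median was -0.93 without lymphoid replicate 6.

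**Figure D1:**
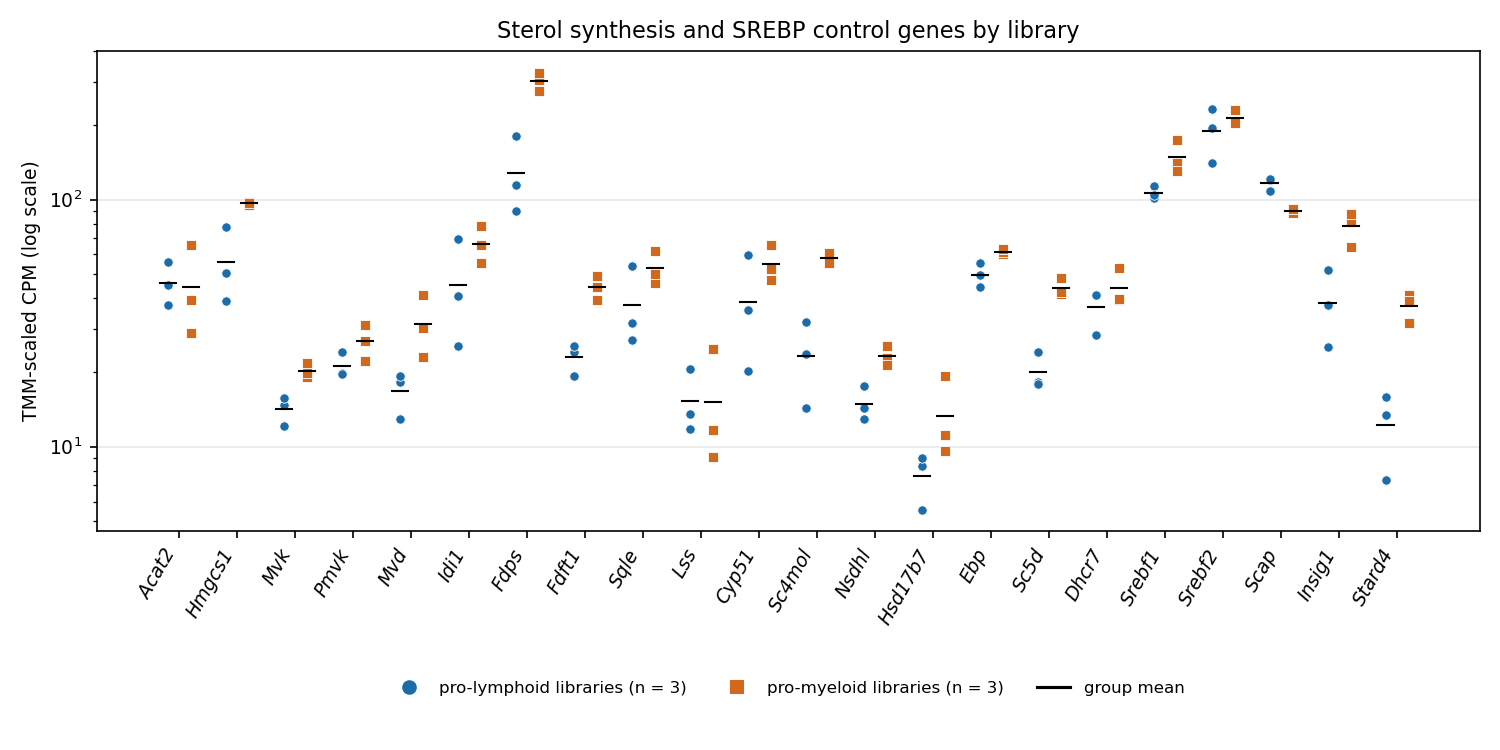
TMM-scaled CPM (y axis, log scale) of the 17 sterol synthesis and 5 SREBP control genes (x axis, in pathway order) in the 3 pro-lymphoid libraries (circles) and the 3 pro-myeloid libraries (squares), with black bars at the means. Fdps averages 129 CPM in pro-lymphoid and 302 CPM in pro-myeloid culture, while Lss averages 15.3 CPM in pro-lymphoid and 15.2 CPM in pro-myeloid culture and overlaps.

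Among the enzymes from acetyl-CoA to the mevalonate pyrophosphates, 3 of 5 fell, where 21.3% of all genes tested were lower. Hmgcs1, which encodes the synthase of HMG-CoA (mm10, chromosome 13, 119690462 to 119708077), had levels of 50.7, 39.0 and 77.6 CPM in lymphoid replicates 1, 5 and 6, against 95.1, 97.9 and 97.3 CPM in myeloid replicates 2, 3 and 4. The pro-myeloid libraries were nearly level and each lay above every pro-lymphoid one (log2 fold change -0.79 ± 0.23, SE, edgeR adjusted p = 0.0324). Dropping lymphoid replicate 1 or 5, or else myeloid replicate 3 or 4, ended that call (edgeR adjusted p = 0.0692 to 0.0911). Mvd, the decarboxylase of mevalonate pyrophosphate, stood at 18.4, 12.9 and 19.3 CPM in pro-lymphoid, against 41.0, 30.2 and 23.2 CPM in pro-myeloid culture (-0.90 ± 0.25, edgeR adjusted p = 0.0281). Its groups did not overlap, and the call remained when myeloid replicate 4 was dropped but not when any of the other libraries was (0.0513 to 0.0849). Mvk, mevalonate kinase, averaged 14.2 ± 1.82 CPM in pro-lymphoid and 20.3 ± 1.35 CPM in pro-myeloid culture (SD, n = 3 each, edgeR adjusted p = 0.0445), which did not survive the removal of any library (0.0675 to 0.144) or a change to upper-quartile or no scaling (0.0581 and 0.0693). Pmvk, which adds the next phosphate, averaged 21.2 ± 2.49 CPM in pro-lymphoid and 26.7 ± 4.40 CPM in pro-myeloid culture with overlap and no call. Acat2, the cytosolic thiolase that joins acetyl-CoA units, averaged 46.1 ± 9.31 CPM in pro-lymphoid and 44.5 ± 18.9 CPM in pro-myeloid culture with no call (log2 fold change 0.05 ± 0.30).

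From isoprenoids to lanosterol, 2 of 5 fell, against 21.3% of all genes tested. These were Fdps and Fdft1, which make farnesyl pyrophosphate and squalene. Fdps (chromosome 3, 89093588 to 89101967) had levels of 115, 89.7 and 181 CPM in lymphoid replicates 1, 5 and 6, against 303, 326 and 275 CPM in myeloid replicates 2, 3 and 4. No pro-lymphoid library reached the lowest pro-myeloid one, and pro-lymphoid cultures held 42.7% of the pro-myeloid mean (log2 fold change -1.23 ± 0.25, edgeR adjusted p = 0.00762). Fdft1 (chromosome 14, 63145150 to 63177793) stood at 24.3, 19.3 and 25.5 CPM in pro-lymphoid against 49.0, 44.3 and 39.4 CPM in pro-myeloid culture (-0.94 ± 0.16, edgeR adjusted p = 0.00375). Its groups did not overlap either, though 774 of its 2863 exon bases lie across from Ctsb on the other strand, and counting without strand cannot tell such reads apart. The isomerase gene Idi1 stood at 40.7, 25.5 and 69.1 CPM in pro-lymphoid, against 78.5, 55.3 and 65.4 CPM in pro-myeloid culture, and the epoxidase gene Sqle at 31.7, 27.1 and 53.9 CPM in pro-lymphoid against 62.0, 45.9 and 50.1 CPM in pro-myeloid culture. In both genes lymphoid replicate 6 lay within the pro-myeloid range and replicates 1 and 5 below it. Neither was called with all libraries (edgeR adjusted p = 0.228 for Idi1 and 0.187 for Sqle), and both were lower without lymphoid replicate 6 (0.0366 and 0.0261). Lss, the cyclase that closes the rings of lanosterol, averaged 15.3 ± 4.62 CPM in pro-lymphoid and 15.2 ± 8.49 CPM in pro-myeloid culture without a call (edgeR adjusted p = 0.989). Here 188 of 3102 exon bases lie across from another gene on the other strand.

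Between lanosterol and cholesterol, all 7 genes had a negative log2 fold change and 3 of them fell. Of all 12477 genes tested, 6241 had a negative value and 21.3% were called lower. Sc4mol, the older symbol of the methylsterol oxidase gene Msmo1 (chromosome 8, 64718145 to 64733578), stood at 23.7, 14.3 and 32.0 CPM in pro-lymphoid, against 59.1, 60.6 and 55.2 CPM in pro-myeloid culture. The groups lay well apart, with the largest decline of the 17 enzymes by point value (log2 fold change -1.32 ± 0.27, edgeR adjusted p = 0.00791). The values of Fdps (-1.23) and Sc5d (-1.13) lay within that SE, so the order of these genes is open. Sc5d, the sterol desaturase gene (chromosome 9, 42254177 to 42264300), stood at 18.3, 18.0 and 24.1 CPM in pro-lymphoid against 48.3, 41.6 and 42.1 CPM in pro-myeloid culture (-1.13 ± 0.16, edgeR adjusted p = 0.00189), again without overlap. Nsdhl, which removes the methyl groups after oxidation, averaged 15.0 ± 2.43 CPM in pro-lymphoid and 23.3 ± 2.13 CPM in pro-myeloid culture (-0.64 ± 0.18, edgeR adjusted p = 0.0253). Its call ended when lymphoid replicate 1 or 5, or else myeloid replicate 3 or 4, was dropped (0.0521 to 0.0873). Ebp, the sterol isomerase gene, and Hsd17b7, a sterol ketone reductase gene, had groups that did not overlap and missed the threshold (edgeR adjusted p = 0.0765 and 0.0869). Cyp51, the demethylase gene of lanosterol, averaged 38.6 ± 19.8 CPM in pro-lymphoid and 55.0 ± 9.42 CPM in pro-myeloid culture, and Dhcr7, the gene of the last reductase of one branch, 36.9 ± 7.46 CPM in pro-lymphoid and 43.8 ± 7.80 CPM in pro-myeloid culture, both with overlap and no call (0.291 and 0.357). Fdps, Fdft1, Sc4mol and Sc5d were called lower under all 14 alternatives.

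The pro-lymphoid libraries differed among themselves in a common order across these enzymes. Lymphoid replicate 5 had the lowest value of its group in 15 of the 17 genes, the exceptions being Lss and Ebp, and lymphoid replicate 6 the highest in 16, the exception being Ebp. Over all tested genes the same libraries were lowest in 31.9% and highest in 28.6%. The 17 genes summed to 558, 451 and 776 CPM in lymphoid replicates 1, 5 and 6, against 1103, 966 and 928 CPM in myeloid replicates 2, 3 and 4. Every pro-lymphoid sum lay below every pro-myeloid sum, and the spread between the pro-lymphoid sums was wider (mean 595 ± 166 CPM, against 999 ± 92.0 CPM for the pro-myeloid sums, SD, n = 3 each). Myeloid replicate 2 was highest of its group in 13 of the 17 genes, against 38.5% of all tested genes.

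**Figure D2:**
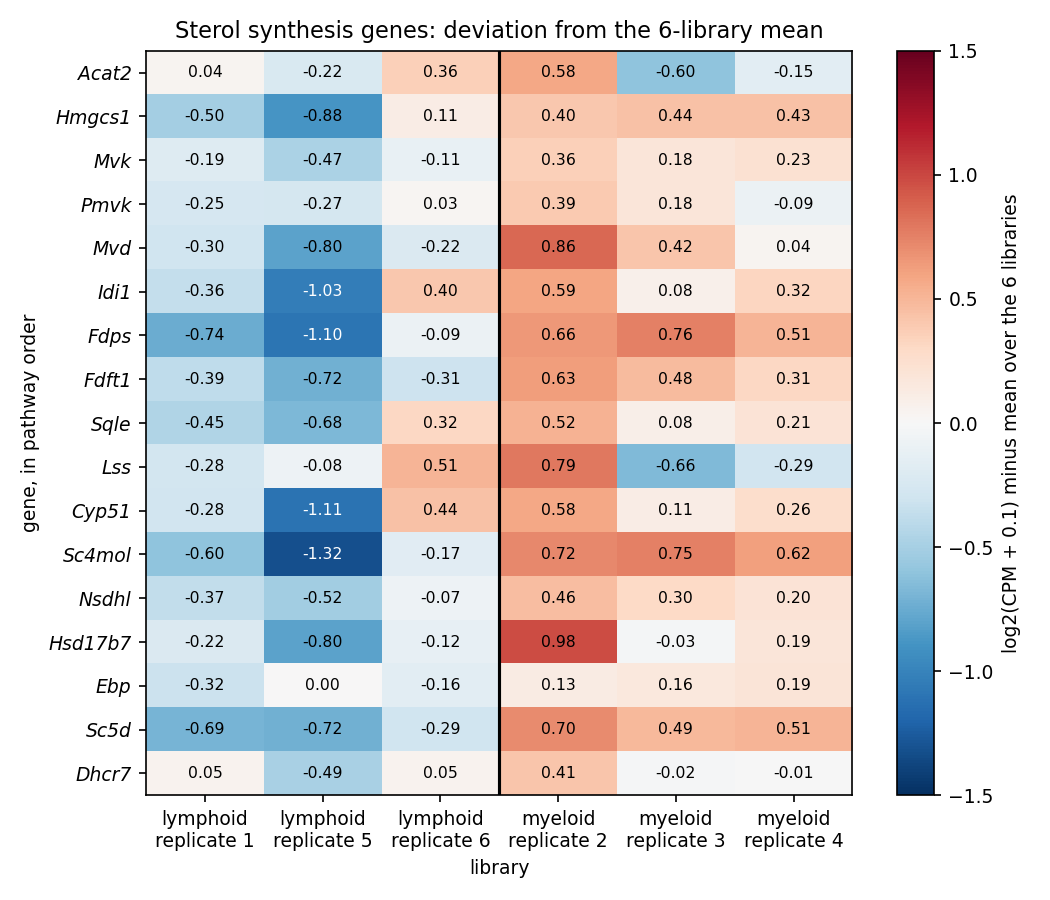
Deviation of log2(CPM + 0.1) from the mean over the 6 libraries (colour and printed value) for the 17 sterol synthesis genes (y axis, in pathway order) in each library (x axis, pro-lymphoid left of the line and pro-myeloid right of it). Lymphoid replicate 5 holds the lowest median (-0.72), lymphoid replicate 6 lies near the mean (-0.08) and myeloid replicate 2 holds the highest (0.58).

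Of the 5 genes that control SREBP or carry sterols, 3 fell, 1 rose and 1 did not pass. Among all genes tested, 21.3% were lower and 17.4% higher. Insig1, which encodes the sterol-dependent anchor of SCAP and is itself an SREBP target (chromosome 5, 28071412 to 28078662), had levels of 37.5, 25.3 and 52.1 CPM in lymphoid replicates 1, 5 and 6, against 82.4, 87.8 and 64.1 CPM in myeloid replicates 2, 3 and 4. The groups did not overlap (log2 fold change -1.03 ± 0.26, edgeR adjusted p = 0.0190), with the call lost without lymphoid replicate 1 or myeloid replicate 3 (0.0543 and 0.0562). Stard4, which encodes a cytosolic sterol carrier (chromosome 18, 33201421 to 33213816), stood at 13.4, 7.35 and 15.9 CPM in pro-lymphoid against 40.9, 31.6 and 38.7 CPM in pro-myeloid culture (-1.60 ± 0.28, edgeR adjusted p = 0.00434). It was called lower under all 14 alternatives, and its pro-lymphoid mean was 32.9% of the pro-myeloid one. As in the enzymes, lymphoid replicate 5 was the lowest library for both genes.

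The genes of the SREBP factors differed in call. Srebf1, which encodes SREBP-1, stood at 114, 101 and 104 CPM in pro-lymphoid, against 175, 141 and 131 CPM in pro-myeloid culture (-0.48 ± 0.13, edgeR adjusted p = 0.0265). The groups did not overlap, and the call was lost without lymphoid replicate 5 or 6 (0.0910 and 0.0962) and with no scaling factors (0.0523). Counts per gene do not separate the isoforms of SREBP-1, and 214 of 4299 exon bases of Srebf1 lie across from Rai1. Srebf2, which encodes SREBP-2, stood at 194, 140 and 233 CPM in pro-lymphoid against 231, 206 and 204 CPM in pro-myeloid culture, with overlap and no call (-0.18 ± 0.18, edgeR adjusted p = 0.484). Scap, the escort gene, went the other way, at 108, 120 and 121 CPM in pro-lymphoid against 89.1, 87.9 and 91.6 CPM in pro-myeloid culture (0.38 ± 0.10, edgeR adjusted p = 0.0203). All its pro-lymphoid libraries lay above the pro-myeloid ones, and dropping lymphoid replicate 5, lymphoid replicate 6 or myeloid replicate 4 ended the call (0.0594 to 0.0870).

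**Figure D3:**
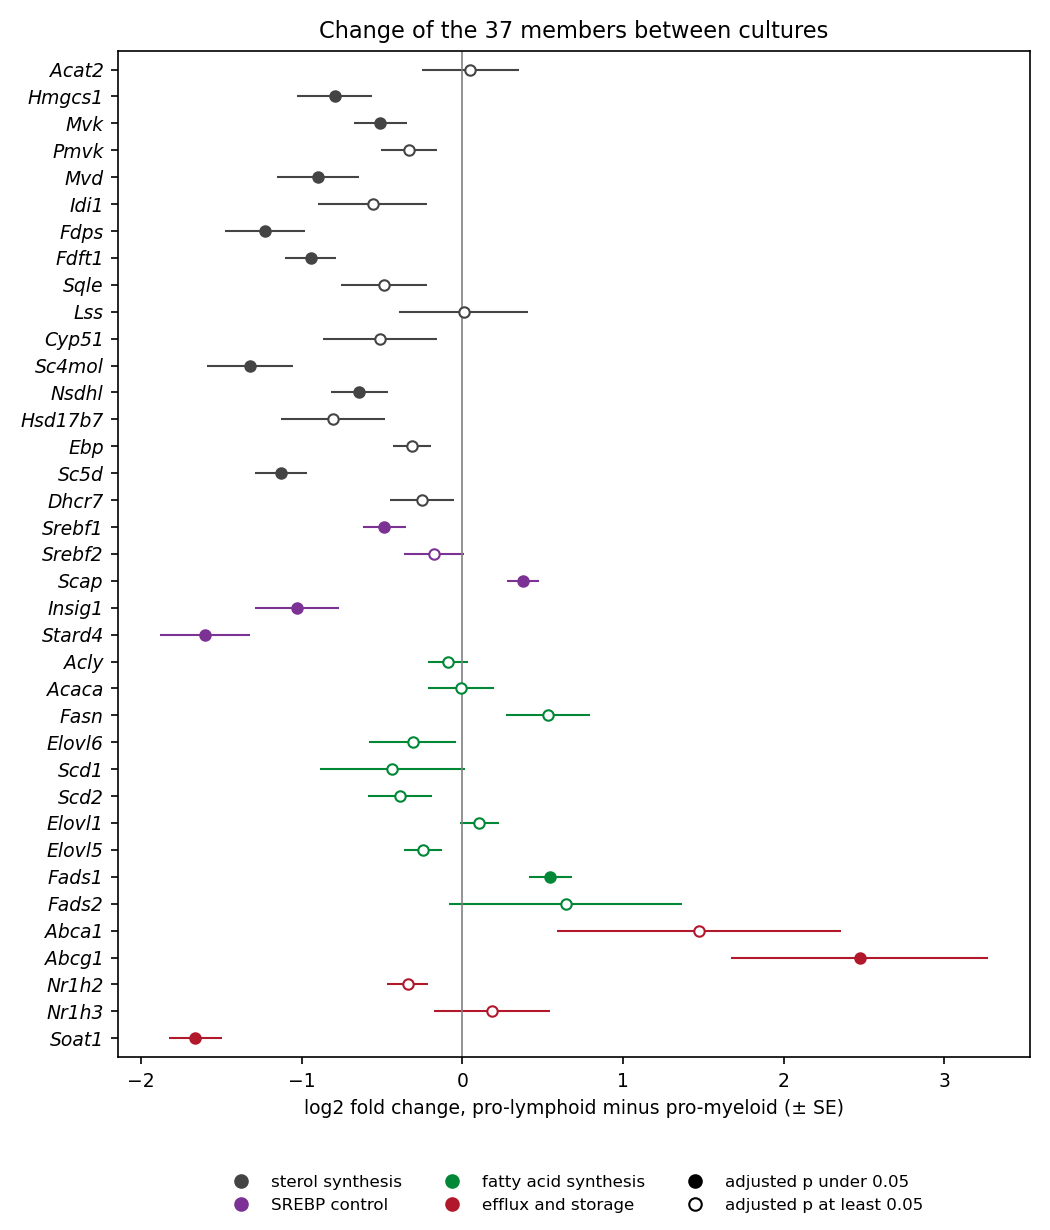
Log2 fold change, pro-lymphoid minus pro-myeloid (x axis, with SE from the edgeR fit), of the 37 genes (y axis, by role and pathway order), with filled points for genes called by edgeR and open points for the rest. Filled points left of 0 are 12 genes, from Soat1 at -1.66 to Srebf1 at -0.48, and filled points right of 0 are Scap (0.38), Fads1 (0.55) and Abcg1 (2.47).

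Fatty acid synthesis genes showed no common change. Of 10 genes, 1 rose, 0 fell and 9 did not pass, with a median log2 fold change of -0.05. Among all genes tested, 17.4% were higher and 21.3% lower. Acly, which makes cytosolic acetyl-CoA for both routes, averaged 311 ± 32.9 CPM in pro-lymphoid and 330 ± 26.0 CPM in pro-myeloid culture (log2 fold change -0.09 ± 0.12). Acaca, the carboxylase gene of the committed step, averaged 109 ± 20.4 CPM in pro-lymphoid and 109 ± 26.0 CPM in pro-myeloid culture (-0.01 ± 0.21). Neither gene was called (edgeR adjusted p = 0.611 and 0.982).

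Fasn, fatty acid synthase, had levels of 435, 308 and 420 CPM in lymphoid replicates 1, 5 and 6, against 380, 202 and 221 CPM in myeloid replicates 2, 3 and 4. Myeloid replicate 2 lay within the pro-lymphoid range and the other pro-myeloid libraries below it. With all libraries there was no call (0.53 ± 0.26, edgeR adjusted p = 0.147), and without myeloid replicate 2 the gene was called higher (0.87, edgeR adjusted p = 0.00796). Myeloid replicate 2 was the highest pro-myeloid library in 9 of the 10 fatty acid synthesis genes, against 38.5% of all tested genes.

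Of the 7 desaturase and elongase genes, which set double bonds and chain length, only Fads1 was called. Fads1, a front-end desaturase of polyunsaturated fatty acids (chromosome 19, 10182888 to 10196872), stood at 108, 119 and 108 CPM in pro-lymphoid, against 89.7, 70.3 and 69.5 CPM in pro-myeloid culture. It was higher without overlap (0.55 ± 0.13, edgeR adjusted p = 0.0151), a call lost without lymphoid replicate 5 or myeloid replicate 4 (0.0565 and 0.0645). Its neighbour Fads2, the other front-end desaturase, varied widely within both groups, at 9.74, 80.2 and 51.0 CPM in pro-lymphoid against 53.8, 17.5 and 19.1 CPM in pro-myeloid culture, with no call (edgeR adjusted p = 0.514). Of the stearoyl-CoA desaturase genes, which put in the double bond of oleate, Scd2 averaged 333 ± 57.4 CPM in pro-lymphoid and 435 ± 102 CPM in pro-myeloid culture and Scd1 0.975 ± 0.205 CPM in pro-lymphoid and 1.31 ± 0.749 CPM in pro-myeloid culture, with no call for either (0.165 and 0.478). Per base of exon Scd2 was 307 ± 42.8 times the level of Scd1 in pro-lymphoid and 331 ± 100.1 times in pro-myeloid libraries (SD, n = 3 each), and reads shared by these related genes may be assigned to either. The elongase genes Elovl1, Elovl5 and Elovl6 averaged 87.3, 106 and 15.5 CPM in pro-lymphoid and 81.1, 126 and 19.2 CPM in pro-myeloid culture, without calls. In Elovl1, 48 of 1904 exon bases lie across from another gene on the other strand. Elovl5 was lower without overlap and was called lower without myeloid replicate 2 (edgeR adjusted p = 0.0415, against 0.137 with it).

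**Figure D4:**
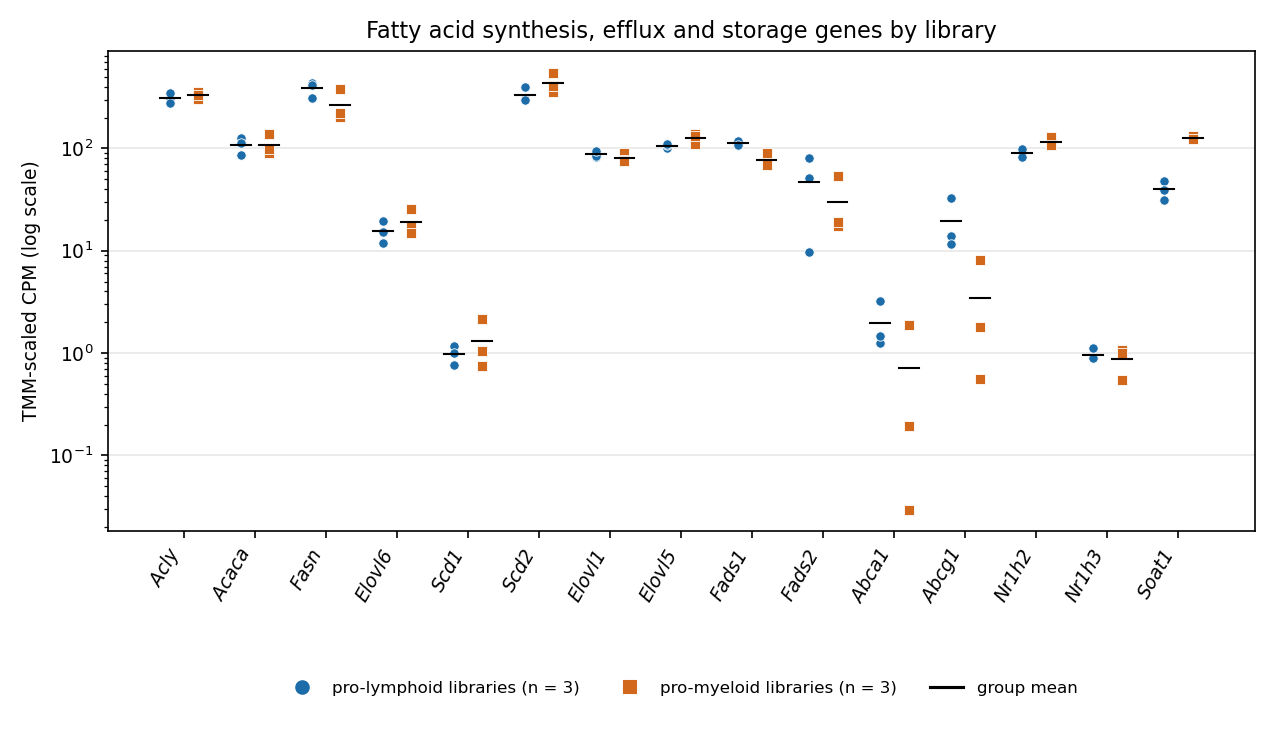
TMM-scaled CPM (y axis, log scale) of the 10 fatty acid synthesis and 5 efflux and storage genes (x axis) in the 3 pro-lymphoid libraries (circles) and the 3 pro-myeloid libraries (squares), with black bars at the means. Acly and Acaca lie level between the groups, Soat1 lies at 39.7 CPM in pro-lymphoid against 126 CPM in pro-myeloid culture, and Abcg1 and Abca1 spread widely among the pro-myeloid libraries.

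Of the 5 efflux and storage genes, 1 fell, 1 rose and 3 did not pass, where 21.3% of all genes tested were lower and 17.4% higher. The rise, of Abcg1, was lost under 7 of the 14 alternatives. Soat1, which encodes the enzyme that esterifies cholesterol for storage in droplets (chromosome 1, 156428108 to 156474328), had levels of 48.1, 31.6 and 39.5 CPM in lymphoid replicates 1, 5 and 6, against 123, 131 and 123 CPM in myeloid replicates 2, 3 and 4. The groups lay far apart, and Soat1 had the smallest adjusted p of the 37 genes (log2 fold change -1.66 ± 0.16, edgeR adjusted p = 0.000374). It was called lower under all 14 alternatives. Abcg1, a transporter gene of cholesterol efflux to lipoproteins (chromosome 17, 31057694 to 31117981), stood at 13.9, 32.6 and 11.7 CPM in pro-lymphoid against 8.07, 0.563 and 1.80 CPM in pro-myeloid culture. The groups did not overlap, but myeloid replicate 2 came near the lowest pro-lymphoid library (2.47 ± 0.80, edgeR adjusted p = 0.0442). The call held without myeloid replicate 2 but not without any of the others (0.0637 to 0.136), nor with DESeq2 (adjusted p = 0.0518) or the older dispersion fit of edgeR (0.0671), and the log2 fold change was 3.96 without myeloid replicate 2.

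Abca1, the efflux transporter gene to lipid-poor apolipoprotein, was low in all libraries, at 1.25, 3.19 and 1.47 CPM in pro-lymphoid against 1.90, 0.0296 and 0.195 CPM in pro-myeloid culture. Myeloid replicate 2 lay within the pro-lymphoid range, and there was no call (1.47 ± 0.88, edgeR adjusted p = 0.226). Without that library Abca1 was called higher (3.94, edgeR adjusted p = 0.00845). Myeloid replicate 3 held 1 count, so its exact value is imprecise. The LXR genes were not called. Nr1h2 (LXR beta) averaged 91.1 ± 8.96 CPM in pro-lymphoid and 115 ± 12.9 CPM in pro-myeloid culture without overlap (edgeR adjusted p = 0.0713), and Nr1h3 (LXR alpha) 0.967 ± 0.130 CPM in pro-lymphoid and 0.872 ± 0.288 CPM in pro-myeloid culture with overlap (edgeR adjusted p = 0.711). Per base of exon Nr1h2 was 99.5 ± 21.0 times the level of Nr1h3 in pro-lymphoid and 149 ± 52.9 times in pro-myeloid libraries (SD, n = 3 each).

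Ranked by CPM per kilobase of exon (RPKM), Fdps was the most abundant of the 37 genes in both cultures, at 88.1 ± 32.4 in pro-lymphoid and 206 ± 17.7 in pro-myeloid libraries. Acly and Scd2 followed, at 70.3 ± 7.43 and 61.1 ± 10.5 RPKM in pro-lymphoid and 74.6 ± 5.87 and 79.9 ± 18.7 RPKM in pro-myeloid libraries, and these neighbours lay within each other's spread. In pro-lymphoid libraries Fdps also overlapped Acly within the spread. Nr1h3, Scd1 and Abca1 were the lowest in both cultures, at 0.475, 0.202 and 0.192 RPKM in pro-lymphoid and 0.428, 0.272 and 0.0691 RPKM in pro-myeloid libraries.

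Over all 37 genes, 12 (32.4%) were lower and 3 (8.11%) higher in pro-lymphoid culture, read against 21.3% and 17.4% of all genes tested. The groups did not overlap for 19 of the 37, against 53.5% of all tested genes, with 16 lower and 3 higher (27.2% and 26.4% of all tested genes). The number higher was 0 without lymphoid replicate 5 or myeloid replicate 4, 1 without lymphoid replicate 6 and 5 without myeloid replicate 2. The number lower was 7 without lymphoid replicate 1, lymphoid replicate 5 or myeloid replicate 3.

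Other genes of the same pathways, listed apart from the 37, were counted in the same fit. Their counts are read against 21.3% lower and 17.4% higher of all genes tested. Of 17 further sterol genes tested, 7 fell and 0 rose, with a median log2 fold change of -0.33, and 3 fell without lymphoid replicate 5. Tm7sf2, which encodes a sterol reductase after lanosterol, stood at 11.1, 8.76 and 10.1 CPM in pro-lymphoid, against 24.3, 21.7 and 18.0 CPM in pro-myeloid culture (-1.10 ± 0.19, edgeR adjusted p = 0.00385). Mbtps1, the gene of a Golgi protease that cleaves SREBPs, averaged lower without overlap (-0.43 ± 0.10, edgeR adjusted p = 0.0154). Of 22 further fatty acid and triglyceride genes, 9 fell and 5 rose, with a median of 0.04, the rises numbering 3 without lymphoid replicate 6.

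Genes of triglyceride synthesis and fatty acid transport were among those called. Dgat1, which makes triglyceride from diglyceride, stood at 21.8, 18.2 and 16.1 CPM in pro-lymphoid, against 67.9, 102 and 82.2 CPM in pro-myeloid culture (-2.16 ± 0.19, edgeR adjusted p = 0.000243). Acacb, the mitochondrial relative of Acaca, stood at 0.0814, 0.0785 and 0.256 CPM in pro-lymphoid against 6.77, 4.80 and 4.21 CPM in pro-myeloid culture (-5.16 ± 0.46, edgeR adjusted p = 0.000208). Lymphoid replicates 1, 5 and 6 held only 3, 3 and 11 counts of Acacb, so the size of its change is imprecise. Fabp5, a fatty acid carrier gene, stood at 51.6, 75.3 and 76.0 CPM in pro-lymphoid against 13.2, 12.6 and 21.3 CPM in pro-myeloid culture (2.10 ± 0.26, edgeR adjusted p = 0.000916). The groups of these 3 genes did not overlap. Of 14 further efflux, LXR and lipid handling genes, 6 fell and 1 rose, against 21.3% and 17.4% of all genes tested. Their median was -0.60, and 0 rose without lymphoid replicate 1, lymphoid replicate 6 or myeloid replicate 4. Plin2, the lipid droplet coat gene, stood at 98.0, 80.1 and 74.7 CPM in pro-lymphoid, against 255, 251 and 203 CPM in pro-myeloid culture (-1.49 ± 0.15, edgeR adjusted p = 0.000407). Scarb1, the receptor gene of high-density lipoprotein, was also lower (-1.29 ± 0.12, edgeR adjusted p = 0.000312), as was Lipa, the lysosomal acid lipase gene (-0.69 ± 0.13, edgeR adjusted p = 0.00620).

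**Figure D5:**
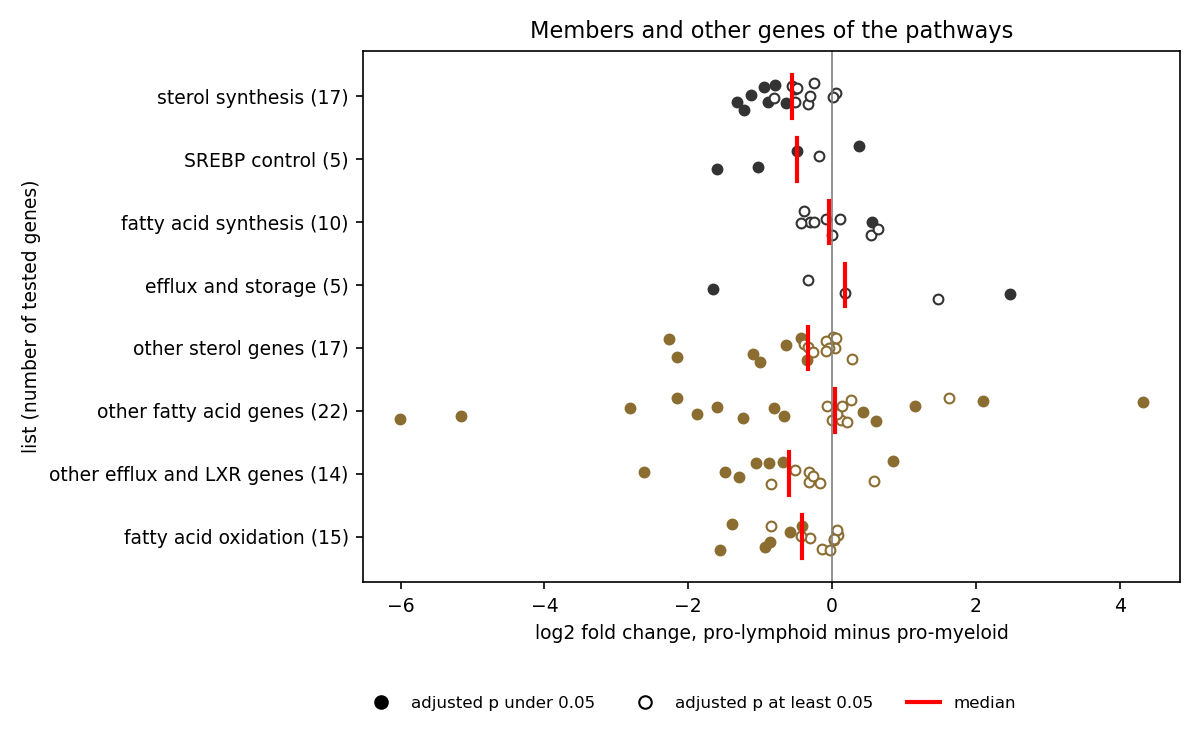
Each point is 1 tested gene, placed by its log2 fold change, pro-lymphoid minus pro-myeloid (x axis), in the 4 member groups and 4 lists of other pathway genes (y axis, with the number tested), filled if called by edgeR, with a red bar at each median. The medians are -0.56 for sterol synthesis, -0.05 for fatty acid synthesis and -0.33 for the other sterol genes.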

How the data were processed

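Polyadenylated RNA of 6 libraries, 3 from each culture, was sequenced as single-end reads, per the labels' protocols. The authors deposited raw read counts per gene, made with featureCounts 1.5.1 on primary alignments, without strand, over UCSC mm10 gene models, per the file headers. Trimmomatic, Bowtie, TopHat and DESeq2 are also named in the submitters' processing notes. Exon lengths come from the deposited table.

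Of 23337 genes, 12477 passed filterByExpr. They were tested with edgeR 4.0.16 (R 4.3.3), using TMM scaling, a quasi-likelihood fit with bias-adjusted deviances, a two-sided F test and Benjamini-Hochberg adjustment over all tested genes at 0.05. Each SE was obtained as the size of the log2 fold change divided by the square root of F. Per-length values divide CPM by exon length. The procedure was tested on simulated data in which far fewer genes changed than were called here. Its error rate with as many changed genes as here was not tested. Each ± value is an SD over the libraries of a group or an SE of the edgeR fit. Both include the spread between libraries, while floors cover counting error only. Promoters came from RefSeq.

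Members and lists were chosen with earlier results of these data known. All members were named, with up to 3 called genes of each other list with the smallest adjusted p. Some genes named by that rule are not reported here. Alternatives were other scalings (RLE, upper-quartile, none), no filter, a minimum of 1 CPM in at least 3 libraries, the test of DESeq2 1.42.0, limma-voom (limma 3.58.1) and each library left out. The older edgeR dispersion fit was added after seeing the data.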

Additional observations from a re-analysis of the deposited data

How the results depend on the processing

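No paired analysis was possible because the labels tie no library to an animal or culture. The replicate numbers run on through both groups, so they cannot show whether libraries were paired. Of the 15 members with a call, 6 held it under all 14 alternatives (Fdps, Fdft1, Sc4mol, Sc5d, Stard4 and Soat1), 9 lost it under at least 1, and 0 changed sign. Changes of scaling or filter, and limma-voom, left 13 to 15 of the 15 calls, against 7 to 13 when 1 library was left out. Leaving out 1 library gave 7 to 11 members lower and 0 to 5 higher, 4 to 8 sterol synthesis members lower, a sterol median of -0.934 to -0.407, 0 to 1 SREBP control members higher, 0 to 2 fatty acid synthesis members higher and 0 to 1 lower, and 0 to 2 efflux and storage members higher. It also gave 3 to 9 other sterol genes lower, 3 to 5 other fatty acid genes higher, 0 to 1 other efflux and LXR genes higher, and 1298 to 2478 genes higher over all. With DESeq2 and with the older edgeR dispersion fit, 0 efflux and storage members were higher, against 1 in the test as reported. Fold changes of 6 members without a call changed sign. These were Acaca with upper-quartile scaling (0.046), no scaling (0.038), limma-voom (0.001) or 1 library left out (-0.131 to 0.201), and, with 1 library left out, Acat2 (-0.184 to 0.435), Lss (-0.262 to 0.554), Srebf2 (-0.35 to 0.003), Scd1 (-0.691 to 0.101) and Nr1h3 (-0.099 to 0.377). With the filter of 1 CPM, Nr1h3 was not tested. Fewer samples remain by construction when a library is left out, and other causes were not tested. Low counts limit the precision of Abca1, which had 1 count in myeloid replicate 3 and 9 in myeloid replicate 4.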

Other observations

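Genes of fatty acid oxidation, which break fatty acids down and are not among the 37, were lower or not called in pro-lymphoid culture. Of 15 tested, 6 fell and 0 rose, where 21.3% of all genes tested were lower and 17.4% higher, with a median log2 fold change of -0.42. Acadl, a long-chain acyl-CoA dehydrogenase gene, had levels of 115, 116 and 112 CPM in lymphoid replicates 1, 5 and 6, against 184, 208 and 232 CPM in myeloid replicates 2, 3 and 4 (-0.86 ± 0.12, edgeR adjusted p = 0.00137). Hadh, the gene of a mitochondrial hydroxyacyl-CoA dehydrogenase, stood at 12.5, 29.7 and 18.4 CPM in pro-lymphoid against 55.0, 59.6 and 64.0 CPM in pro-myeloid culture (-1.56 ± 0.29, edgeR adjusted p = 0.00562). The groups of both genes lay apart. Most of the spread of Hadh was among the pro-lymphoid libraries, where replicate 5 was the highest.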
